A study of Mus musculus with 60 samples.

Results

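The comparison set a line of induced hepatic progenitor cells grown from a single mouse hepatocyte, IL6-iHPCs-clone-1 at passage 20 (P20), against 2 bulk lines of the same kind of cell at passage 10 (P10), IL6-iHPCs-mouse-1 and IL6-iHPCs-mouse-2. Its 9 samples (3 of the clone, 3 of each bulk line) were chosen by their names, out of 33 samples in the table of cultured cells. All genes with at least 1 FPKM (expression scaled to transcript length and library size) in at least 3 of the 9 samples were analysed, which left 11178 of 19355 genes (57.8%). The labels give each sample as liver of wild type C57BL/6 mice, and all 9 were grown in the same hepatocyte medium, which holds EGF, HGF and IL6, so the clone and the bulk lines share these factors. A bulk line holds the offspring of many hepatocytes of 1 mouse, and the clone that of 1 hepatocyte. The study established its hepatocyte-derived clones from mice in which an Albumin-driven Cre switches on tdTomato in hepatocytes, and the labels do not say whether the sequenced clone carries that reporter. The 3 samples of a group are technical repeats, so p-values cover the spread between such repeats and, in the pooled bulk group, the difference between the 2 lines. Clonal origin and passage number both differ between the clone and the bulk lines, the labels do not name the clone's donor mouse, and the effects of these cannot be told apart. Mouse-1 cells at passage 35 (P35) and freshly isolated hepatocytes, 3 samples each, are given beside the clone as points of reference.

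Adult hepatocytes make most plasma proteins, clotting factors and complement, and they detoxify drugs with cytochrome P450 enzymes. They rarely divide in the resting liver. After injury, or in culture with growth factors and IL6, they can re-enter the cell cycle, lose part of their mature program and take on genes of the bile duct epithelium, such as the keratins Krt7 and Krt19 and the transcription factor Sox9. Such cells are called hepatic progenitors, and they can mature into hepatocytes again. A line grown from a single cell shows the state of 1 lineage, while a bulk line averages over many.

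The 9 libraries held 49.3 to 75.39 M reads (M, mega) on genes, recovered from the deposited values, where a read is the smallest unit counted. Samples of a group correlated over the genes tested at r = 0.988 to 0.999. The clone correlated with the mouse-1 (P10) samples at 0.789 to 0.82, with the mouse-2 (P10) samples at 0.813 to 0.825 and with mouse-1 (P35) at 0.927 to 0.934, while the 2 bulk lines at P10 correlated with each other at 0.962 to 0.965. All 9 samples expressed Hnf4a, a master regulator of hepatocyte genes, at 172 to 263 FPKM and Alb at 3554 to 8373 FPKM. Groups of hepatocyte genes differed in how near they were to freshly isolated hepatocytes. The summed cytochrome P450 genes reached 303 to 317 FPKM in the clone and 621 to 753 in mouse-1 (P10). They reached 528 to 562 in mouse-2 (P10) and 11800 to 12500 in hepatocytes. The summed hepatocyte transcription factors reached 877 to 930, 1020 to 1150, 909 to 925 and 970 to 1050 FPKM in the same order. Markers of other liver cells were few: 2 of 16 Kupffer cell, 2 of 15 endothelial, 1 of 15 stellate cell, 1 of 9 mesothelial and 2 of 15 blood cell genes passed the filter, and 9 of the 16 Kupffer genes, Clec4f, Adgre1 and Vsig4 among them, were listed at 0 in all 9. The summed Kupffer genes reached 8.7 to 10.1 FPKM in the clone, 1.09 to 1.54 in mouse-1 (P10) and 4.59 to 5.0 in mouse-2 (P10), and the summed endothelial genes 6.01 to 7.57, 3.42 to 3.91 and 1.90 to 2.32 FPKM. The summed stellate cell genes reached 3.48 to 4.40 FPKM in the clone, 10.3 to 19.5 in mouse-1 (P10) and 3.70 to 4.59 in mouse-2 (P10). The summed mesothelial genes, nearly all Msln, reached 328 to 366, 69.6 to 75.7 and 318 to 325 FPKM in the same order, and the summed blood cell genes, nearly all S100a8 and S100a9, 28.2 to 36.7, 0.386 to 0.446 and 0.187 to 0.298 FPKM. What part these genes have in the results below was not tested.

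Against the bulk lines, 3250 genes (29.1% of those tested) were changed in the clone, with 2413 higher (21.6%) and 837 lower (7.49%). To be called, a gene had to differ at least 2-fold on the log2(FPKM + 1) scale, with a limma p-value below 0.05 after Benjamini-Hochberg adjustment over all 11178 genes. This scale understates the change of low genes. Against mouse-1 (P10) alone 3525 genes were called (31.5%), with 23.3% higher and 8.22% lower, and against mouse-2 (P10) alone 3233 (28.9%), with 20.9% higher and 7.99% lower. In the same direction against both lines, 2640 were called (23.6%), 1994 higher (17.8%) and 646 lower (5.78%). By the same rule, 501 genes (4.48%) differed between the 2 bulk lines, 2.46% higher and 2.02% lower in mouse-2, and 1054 (9.43%) between the clone and mouse-1 (P35). A gene at or near 0 in the bulk lines passed the filter through the clone alone, and a gene at or near 0 in the clone through the bulk lines alone, so such genes had to differ, and the gene group counts below include them. Every clone sample lay above every bulk sample for 5592 genes (50%) and below for 2554 (22.8%).

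The excess of rises depended on the scaling. The median difference over all genes was 0.31 on the log2 scale in FPKM, -0.05 after median ratio scaling and -0.02 after quantile normalization. Of the genes called, 74.2% were higher in FPKM (2413 of 3250), against 50.1% with median ratio scaling (1438 of 2871) and 52.0% with quantile normalization (1437 of 2765). The 10 genes with the most reads took 6.23 to 6.68% of the reads in the clone and 16.9 to 19.2% in the bulk lines at P10, and the part of this in the shift was not tested. Counts of gene groups are therefore given below in FPKM and, where scaling changed them by more than 1 gene, after median ratio scaling. The counts in FPKM are to be read beside the 21.6% of all genes called higher and the 7.49% called lower. Those after median ratio scaling are to be read beside 1438 genes called higher and 1433 called lower of the 11178 tested.

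**Figure D1:**
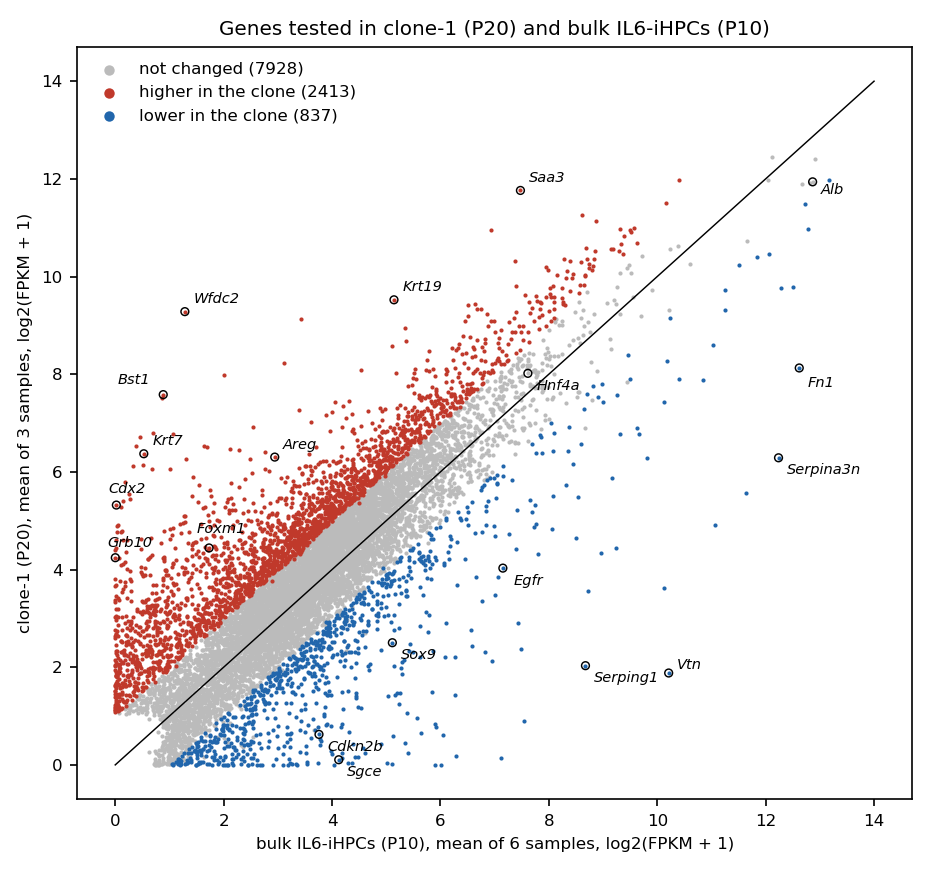
Each point is 1 of the 11178 genes tested, at its mean log2(FPKM + 1) over the 6 bulk samples at P10 (horizontal axis) and over the 3 samples of clone-1 (P20) (vertical axis). Colours mark the 2413 genes called higher and the 837 called lower in the clone, and the labelled genes far from the diagonal include Wfdc2 and Vtn.

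The largest rise was in Wfdc2 and the largest fall in Vtn. Wfdc2, a secreted protein of ductal epithelia, was at 585, 602 and 677 FPKM in the clone, at 3.74, 1.43 and 1.45 FPKM in mouse-1 (P10) and at 0.787, 0.508 and 0.696 FPKM in mouse-2 (P10). It rose by 8.11 ± 0.31 (SE) on the log2 scale (adjusted p = 1.1e-08), and no clone sample came near a bulk sample. Vtn, the plasma and matrix protein vitronectin, stood at the other end, at 2.47, 2.39 and 3.19 FPKM in the clone, 1191 to 1227 FPKM in mouse-1 (P10) and 1148 to 1159 FPKM in mouse-2 (P10). Its mean in the bulk lines was 441 times that of the clone, with a difference of -8.34 ± 0.08 (SE; adjusted p = 3.28e-12). Vtn averaged 6.32 FPKM in mouse-1 (P35) and 2202 FPKM in hepatocytes, so the clone and the P35 culture were both low.

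The other large rises joined genes of several kinds. Bst1, a surface enzyme that hydrolyses NAD, averaged 191 FPKM in the clone and 0.847 FPKM in the bulk lines, with no rise in mouse-1 (P35), at 0.383 FPKM. Gcnt3, which branches the sugar chains of mucins, averaged 91.4 FPKM in the clone, 0.298 FPKM in the bulk lines and 0.529 FPKM in mouse-1 (P35). Both were thus high in the clone and low in the 3 other cultures. Emp1, a membrane protein of epithelia, was high in both later cultures, at 104 FPKM in the clone, 0.373 FPKM in the bulk lines and 172 FPKM in mouse-1 (P35). Id1 and Id3, inhibitors of helix-loop-helix factors and targets of BMP signaling, averaged 556 and 111 FPKM in the clone against 9.79 and 0.631 FPKM in the bulk lines. Fam129a, Bex1 and Anxa13 completed the 15 largest rises with Lgals2, Tspan8, Krt7, Cxcl5, Gsta4 and Saa3, which are described with their groups.

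**Figure D2:**
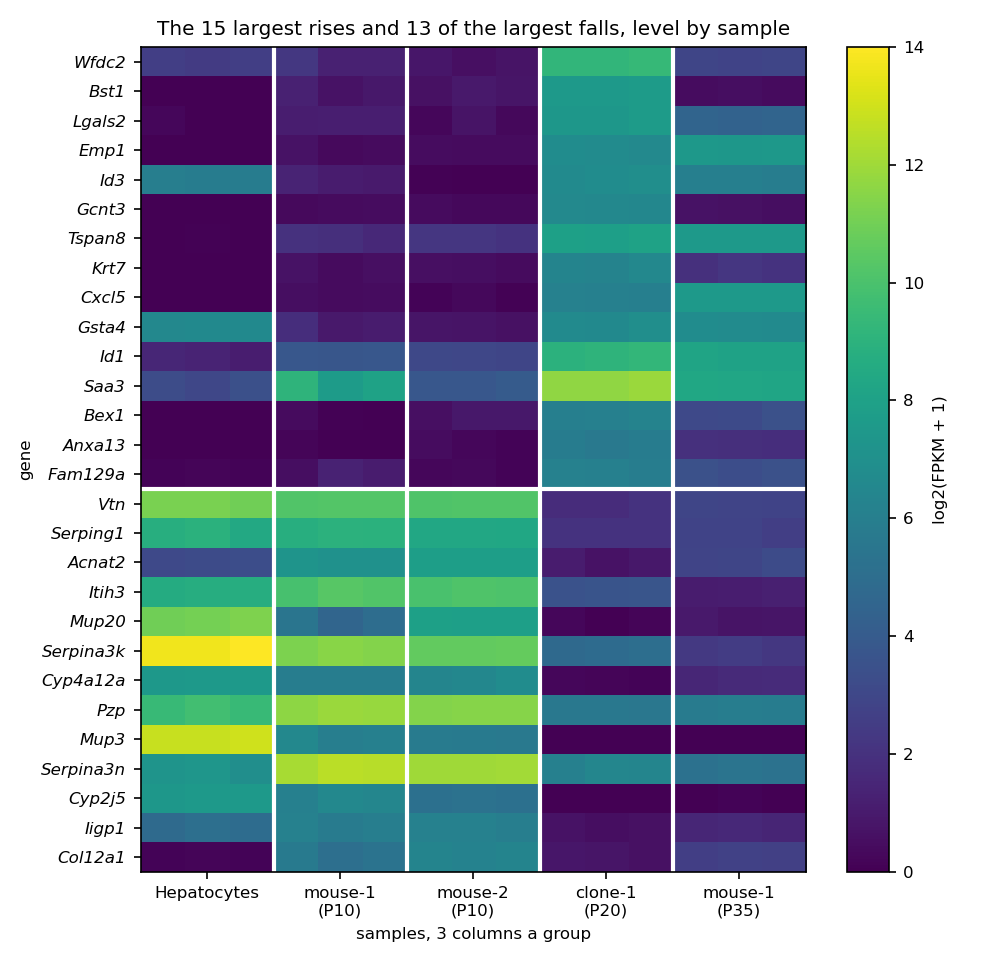
Heat map of log2(FPKM + 1) for the 15 largest rises and 13 of the largest falls (rows) in each sample of hepatocytes, the bulk lines at P10, the clone and the P35 culture (columns). The rows were chosen for their difference between the clone and the bulk samples at P10. The opposite levels of these groups thus follow from the choice. The bulk lines differ from each other in some rows, such as Saa3. Mouse-1 (P35), which had no part in the choice, is near the clone for falls such as Vtn and Pzp. For the rises mouse-1 (P35) is mixed, near the bulk lines for Bst1 and Gcnt3 and near the clone for Emp1 and Gsta4.

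Among 22 transcription factors of hepatocytes, 21 passed the filter, 4 rose and 9 fell (3 and 10 after median ratio scaling), with a median difference of -0.54 beside 0.31 for all genes. Hnf4a was at 260, 263 and 251 FPKM in the clone, at 201, 226 and 222 FPKM in mouse-1 (P10) and at 172, 175 and 174 FPKM in mouse-2 (P10). Its difference of 0.41 ± 0.11 (SE) was under the 2-fold limit and turned to -0.12 with quantile normalization. Mlxipl (ChREBP), which turns on glycolytic and lipogenic genes when glucose is high, was lower in every clone sample, at 3.34, 3.11 and 3.69 FPKM against 143, 173 and 169 FPKM in mouse-1 (P10) and 84.6, 82.6 and 87.6 FPKM in mouse-2 (P10). It fell by 4.75 ± 0.26 (SE; adjusted p = 1.43e-07). Onecut1, a factor of liver and bile duct development, fell from 23.1 to 73 FPKM in the bulk samples to 3.07 to 4.01 FPKM. The rises were Gata6, a factor of early endoderm, with 10.4 to 10.8 FPKM against 0.256 to 1.03 FPKM, and Cebpb, a factor of the acute phase response, with 191 to 246 FPKM against 26.9 to 61.2 FPKM, besides Cebpa and Foxa2 (named after their values were seen). Of 16 nuclear receptors tested, 2 rose and 4 fell. Pparg, the receptor that drives fat storage, averaged 13.7 FPKM in the clone and 0.456 FPKM in the bulk lines, while Thrb, a thyroid hormone receptor, fell by 2.36.

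Many plasma protein genes fell. Of 22 tested (23 listed), 13 fell and 1 rose, with a median of -1.34, and 15 fell and none rose after median ratio scaling. The background share of genes called lower was 7.49% in FPKM. Alb, the most abundant plasma protein, was at 4087, 3554 and 4134 FPKM in the clone, at 6397, 7267 and 6842 FPKM in mouse-1 (P10) and at 7790, 8130 and 8373 FPKM in mouse-2 (P10). The groups did not overlap, but the difference of -0.92 ± 0.14 (SE) was under the 2-fold limit, which it passed after median ratio scaling (-1.34). Alb averaged 1491 FPKM in mouse-1 (P35) and 50010 FPKM in hepatocytes, so the clone lay between the P35 culture and the P10 lines. Pzp, a protease inhibitor of mouse plasma encoded on chromosome 6, fell from 2757 to 3790 FPKM in the bulk samples to 46 to 47.3 FPKM. Rbp4, the retinol carrier, was the only riser, at 1531 to 1820 FPKM against 716 to 926 FPKM, and its call was lost with median ratio scaling and with quantile normalization.

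Many clotting and complement genes fell as well. Of 18 coagulation genes tested, 12 fell and 2 rose, with a median of -1.57. F9, which is absent in hemophilia B, averaged 0.123 FPKM in the clone, 26.7 FPKM in mouse-1 (P10) and 16.1 FPKM in mouse-2 (P10), and F12, which starts the contact pathway, fell by 4.25 ± 0.30 (SE). Both rises, in the thrombin inhibitor Serpind1 (153 to 167 FPKM against 54.5 to 75.8 FPKM) and in the clotting protease F11 (4.61 to 5.65 FPKM against 1.42 to 3.07 FPKM), were lost after median ratio scaling. Of 19 complement genes tested, 12 fell and only the lectin pathway protease Masp1 rose, with a median of -2.05. After median ratio scaling the call of Masp1 was lost and 14 fell, with a median of -2.16. Serping1, the inhibitor of the first complement component, was at 3.08, 3.10 and 3.08 FPKM in the clone, at 435, 516 and 498 FPKM in mouse-1 (P10) and at 334, 338 and 326 FPKM in mouse-2 (P10), a fall by 6.62 ± 0.16 (SE; adjusted p = 5.43e-10). C4b, a component of the classical complement pathway, averaged 19.1 FPKM in the clone and 498 FPKM in the bulk lines. Against mouse-1 (P35), the clone was higher in 13 of the plasma protein genes, 13 of the coagulation genes and 6 of the complement genes and lower in 0, 0 and 1, where 6.27% of all genes were higher and 3.16% lower.

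Acute phase genes, which IL6 drives in liver, split. Of 20 tested, 4 rose (20%) and 8 fell (40%), where 21.6% and 7.49% of all genes did, or 3 and 11 after median ratio scaling. Against mouse-1 (P10) alone 15 fell and against mouse-2 (P10) alone 8, and 7 of the 20 were lower in mouse-2 than in mouse-1. Saa3, a serum amyloid made outside the normal liver, was at 3304, 3298 and 3822 FPKM in the clone, at 551, 202 and 268 FPKM in mouse-1 (P10) and at 13.2, 12.8 and 15.1 FPKM in mouse-2 (P10). All clone samples were above all bulk samples, and the bulk lines stood so far apart that the rise was not called with 1 mean per line. Hamp, the iron hormone hepcidin, rose from 0.0484 to 0.445 FPKM to 20.6 to 25.5 FPKM, and it averaged 1108 FPKM in hepatocytes. Itih3, which stabilizes hyaluronan, fell from 962 to 1330 FPKM to 10.5 to 12.1 FPKM. Serpina3n, a protease inhibitor induced in inflammation, fell from 4117 to 6091 FPKM to 67.2 to 83.7 FPKM, and Serpina3k by 6.11. The serpin, Saa, Mup and Cyp genes have near-identical copies, so reads may be shared among them. Mup20, a urinary protein that carries pheromones, averaged 0.108 FPKM in the clone, 31.9 FPKM in mouse-1 (P10) and 242 FPKM in mouse-2 (P10). Its relative Mup3 was listed at 0 in all clone and P35 samples and at 49.9 to 93.1 FPKM in the bulk samples. Both passed the filter through the bulk lines alone, so their calls are a description only. The call of Mup20 was lost with voom on recovered reads and on 1 mean per line.

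Many of the drug-metabolizing cytochromes tested fell. Of 60 cytochrome P450 genes and partners listed, 32 passed the filter, 16 fell and 4 rose, with a median of -0.99. Cyp4a12a, a male-biased fatty acid hydroxylase, was at 0.17, 0.137 and 0.115 FPKM in the clone, at 59.8, 59.5 and 60.4 FPKM in mouse-1 (P10) and at 80.3, 87.1 and 113 FPKM in mouse-2 (P10). Cyp2j5, an epoxygenase of fatty acids, was at 0, 0 and 0.0116 FPKM against 35.2 to 93.5 FPKM. Both lie on chromosome 4, which was lower in the clone as a whole, as given below. Cyp1a2, which oxidizes caffeine and many drugs, was at most 0.0666 FPKM in the clone and 0.784 to 3.89 FPKM in the bulk samples. Its mean was 297 FPKM in hepatocytes, so it was low in the clone and in both bulk lines. Cyp1a2 passed the filter through the bulk lines alone, so its call, lost on 1 mean per line, is a description only. Cyp2c70, which hydroxylates bile acids, rose from 1.31 to 3.22 FPKM to 17 to 18.8 FPKM, and Cyp2s1, an epithelial cytochrome, from at most 0.326 FPKM to 4.20 to 4.66 FPKM.

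Of 38 conjugating enzymes tested, 15 rose and 7 fell, or 11 and 8 after median ratio scaling, so the list moved in both directions. Gsta4, a glutathione transferase that clears lipid aldehydes, averaged 108 FPKM in the clone, 1.10 FPKM in the bulk lines, 106 FPKM in mouse-1 (P35) and 96.8 FPKM in hepatocytes. The bulk lines at P10 were thus the low group for this gene. Its relative Gsta1 rose by 3.65 ± 0.17 (SE), while the sulfotransferases Sult1a1 and Sult1d1 fell by 2.78 and 2.58, Sult1a1 without a call on 1 mean per line.

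In central metabolism, different branches moved in different directions. Of 36 genes of glucose metabolism tested, 11 rose and 9 fell, and 5 rose and 14 fell after median ratio scaling. Slc2a2, the glucose transporter of hepatocytes (GLUT2), was at 0.65, 0.888 and 0.838 FPKM in the clone, at 44.1, 41.1 and 44.1 FPKM in mouse-1 (P10) and at 75.8, 74.7 and 72.4 FPKM in mouse-2 (P10). G6pc, which releases glucose from the liver, was at most 0.0488 FPKM in the clone and at least 10.8 FPKM in the bulk samples. G6pc passed the filter through the bulk lines alone, so its call, lost on 1 mean per line, is a description only. G6pdx, the entry enzyme of the pentose phosphate path, rose by 2.20, and Hk1, the hexokinase of most tissues, by 1.94 (no call on 1 mean per line). Of 38 genes of sterol and fatty acid synthesis, all tested, 16 rose and 4 fell, or 7 and 6 after median ratio scaling. Mvk, mevalonate kinase, rose from 12.6 to 14 FPKM to 60.2 to 65.8 FPKM, and Ebp, a sterol isomerase, by 1.95, while Acaca, the first enzyme of fatty acid synthesis, fell by 2.21.

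Oxidation of fat, bile acid metabolism and amino acid breakdown each held falls and rises. Of 32 fat oxidation genes tested, 6 fell and 2 rose, or 10 and 2 after median ratio scaling. Fabp5, a fatty acid carrier of epithelia, rose by 2.98 and Fgf21, a hormone of fasting, by 2.81. Of 21 bile acid genes tested, 7 fell and 2 rose. Baat, which joins bile acids to taurine and glycine, averaged 1.71 FPKM in the clone and 75.8 FPKM in the bulk lines, while Cyp27a1, a sterol hydroxylase that starts an alternative path of bile acid synthesis, rose by 3.23. Of 31 amino acid genes tested, 10 rose and 7 fell, or 7 and 9 after median ratio scaling. Mat1a, the methionine adenosyltransferase of mature liver, fell by 4.81, and Gpt, alanine transaminase, rose from 7.01 to 12.3 FPKM to 142 to 166 FPKM. Among lipid carriers, 2 of 16 rose and 4 fell, with Apoa1, the main protein of HDL, at 2187 to 2787 FPKM against 161 to 600 FPKM (no call on 1 mean per line) and Apom at 10.6 to 13.6 FPKM against 0.246 to 1.1 FPKM. Arg1, the urea cycle enzyme, did not pass the filter, at 0.171 to 0.377 FPKM in the clone and 0.0473 to 0.515 FPKM in the bulk samples, against a mean of 1107 FPKM in hepatocytes. Fah, the last enzyme of tyrosine breakdown, was at 81.9 to 96.7 FPKM in the clone against means of 108 FPKM in both bulk lines, and Glul, glutamine synthetase, at 63.2 to 67.6 FPKM against 135 and 79.9 FPKM, and neither was called in FPKM.

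Biliary and progenitor genes split, with the keratins among the rises and Sox9 among the falls. Of 40 biliary and progenitor genes listed, 29 passed the filter, 16 rose (55.2%) and 7 fell (24.1%), where 21.6% of all genes rose and 7.49% fell, or 14 and 8 after median ratio scaling. The summed level of the list was lower in the clone, at 5860 to 6780 FPKM against 9670 to 10900 FPKM in mouse-1 (P10) and 12800 to 14000 FPKM in mouse-2 (P10). Krt19, a keratin of bile ducts, was at 681, 708 and 815 FPKM in the clone, at 9.94, 6.07 and 6.94 FPKM in mouse-1 (P10) and at 61.5, 60.4 and 61.2 FPKM in mouse-2 (P10). The 2 bulk lines stood apart from each other, and the rise of 5.0 ± 0.81 (SE) was not called on 1 mean per line. Krt7, its partner in duct cells, was at 78, 74.9 and 92.4 FPKM in the clone and at 0.312 to 0.601 FPKM in the bulk samples. Krt7 passed the filter through the clone alone, so no test is given, and it averaged 3.19 FPKM in mouse-1 (P35), where Krt19 averaged 510 FPKM. Tspan8, a tetraspanin of ducts and tumors, averaged 252 FPKM in the clone, 3.04 FPKM in the bulk lines and 184 FPKM in mouse-1 (P35). Sox9, the progenitor factor, went the other way, at 4.84, 4.82 and 4.33 FPKM in the clone, 39.7, 41.2 and 43.6 FPKM in mouse-1 (P10) and 23.4, 26.9 and 26.7 FPKM in mouse-2 (P10). It fell by 2.57 ± 0.20 (SE; adjusted p = 1.34e-06), with 5.52 FPKM in mouse-1 (P35), and Spp1 (osteopontin) fell by 1.19, a call lost with quantile normalization.

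**Figure D3:**
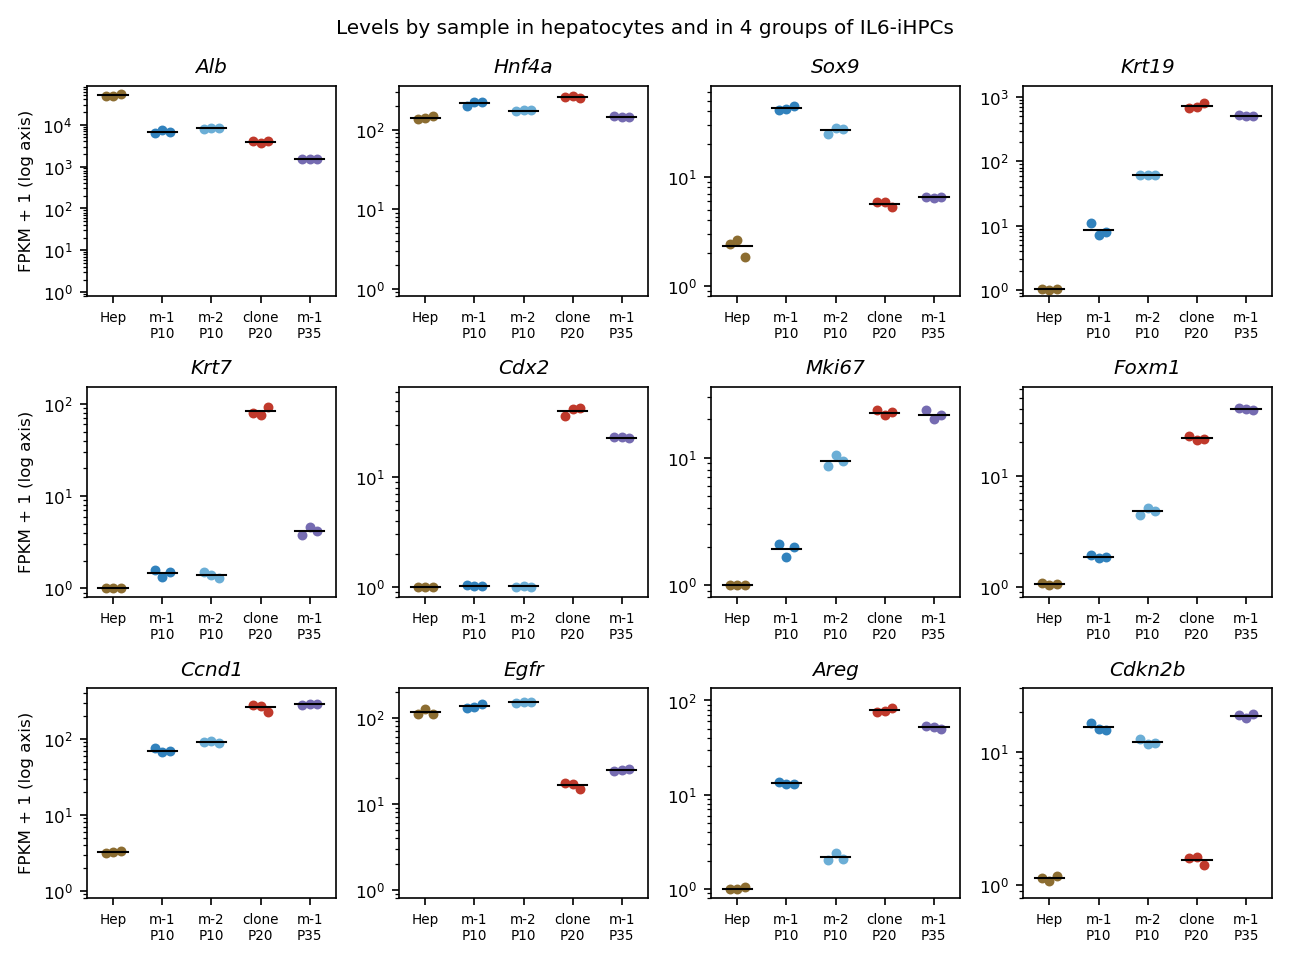
FPKM + 1 on a log axis for 12 genes in each sample of hepatocytes, the bulk lines at P10, the clone and the P35 culture, with a line at each group mean. Krt7, Krt19, Cdx2, Foxm1 and Areg are higher in the clone than in both bulk lines at P10, Sox9, Egfr and Cdkn2b are lower, and Cdkn2b stays high in mouse-1 (P35).

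Many epithelial junction and keratin genes rose and none was called lower. Of 63 listed, 42 passed the filter and 23 rose, with 19 after median ratio scaling. Besides the keratins, the rises held claudins (Cldn3 and Cldn7, named after their values were seen), and of the integrins and laminins tested 8 of 17 rose and 1 fell, or 5 and 2 after median ratio scaling. Lamb3, a laminin chain of epithelial basement membrane, averaged 75.6 FPKM in the clone and 1.48 FPKM in the bulk lines, and Itgb4, which binds that laminin, rose from 0.215 to 0.818 FPKM to 17.2 to 18.4 FPKM. Genes often called mesenchymal split, with 12 rises and 3 falls among 25 tested, or 11 and 5 after median ratio scaling. Fn1, fibronectin, was at 281, 299 and 256 FPKM in the clone, 5961 to 6601 FPKM in mouse-1 (P10) and 5932 to 6682 FPKM in mouse-2 (P10), a fall by 4.49 ± 0.10 (SE; adjusted p = 2.9e-10). Twist1, a factor of mesenchymal transition, was listed at 0 in all 3 clone samples and at 3.09 to 12.7 FPKM in the bulk samples. Twist1 passed the filter through the bulk lines alone, so its call, lost on 1 mean per line, is a description only. Sparc, a matrix glycoprotein, rose from at most 0.0845 FPKM to 27.5 to 31.2 FPKM, and Mmp13, a collagenase, from at most 0.0292 FPKM to 18.2 to 22.8 FPKM. Of 26 collagens and matrix proteins tested, 6 rose (23.1%, near the 21.6% of all genes) and 7 fell (26.9%), or 5 and 10 after median ratio scaling, with Fbln1 and Vcan among the rises (16.7 to 19.5 and 34.4 to 44.5 FPKM in the clone) and Col12a1 and Col16a1 among the falls (at most 0.833 and 0.676 FPKM in the clone, at least 33 and 14.6 FPKM in the bulk samples).

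Several genes of the fetal liver and a few of gut were higher in the clone. Of 30 fetal liver genes listed, 15 passed the filter, 12 rose (80%) and 2 fell (13.3%), where 21.6% and 7.49% of all genes did. Igf2, the fetal growth factor, was at 15.1, 15 and 13.6 FPKM in the clone and at 0.0355 to 0.395 FPKM in the bulk samples. It passed the filter through the clone alone, so no test is given. The share of rises includes such genes, which had to differ, and is a description only. Bex1 rose by 5.65, and Aldh1a1, a retinal dehydrogenase, fell by 3.28. Of 45 genes of other endodermal organs listed, only 10 passed, 5 rose and 1 fell, again with genes counted that passed through the clone alone. Cdx2, the factor that specifies intestine, had 5642, 5532 and 5398 reads in the clone and 0 to 4 reads in each bulk sample, or 34.9 to 41.4 FPKM against at most 0.0378 FPKM. It averaged 22 FPKM in mouse-1 (P35) and was listed at 0 in hepatocytes, so both later cultures expressed it and the P10 lines did not beyond a few reads. Lgals2, a galectin of gut epithelium, was at 169, 167 and 206 FPKM against 0.206 to 1.29 FPKM. Of 39 Hox genes listed, none passed the filter.

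Cell division genes gave the most uniform rise. Of 56 genes of mitosis tested (57 listed), 52 rose and none fell, with a median of 2.64 beside 0.31 for all genes, and 49 rose after median ratio scaling. Of 48 genes of DNA replication tested, 42 rose and none fell, with 37 rises after median ratio scaling. Every clone sample lay above every bulk sample for all 56 and for 47 of the 48, where this held for 50% of all genes. Ube2c, which feeds the anaphase-promoting complex, was at 112, 116 and 133 FPKM in the clone, at 1.09, 1.26 and 0.677 FPKM in mouse-1 (P10) and at 7.67, 9.66 and 8.58 FPKM in mouse-2 (P10). Mouse-2 (P10) thus lay between, and 27 of the 56 mitosis genes were higher in mouse-2 than in mouse-1, where 2.46% of all genes were. Ccnb1, the mitotic cyclin, was at 57 to 60.1 FPKM against 0.152 to 3.77 FPKM, and Rrm2, which makes deoxynucleotides, at 481 to 495 FPKM against 31.2 to 50.6 FPKM. Mki67, the proliferation marker Ki67, was at 22.5, 20.5 and 21.8 FPKM in the clone, at 1.11, 0.668 and 0.974 FPKM in mouse-1 (P10) and at 7.54, 9.41 and 8.38 FPKM in mouse-2 (P10). The rises of Mki67 (2.41 ± 0.65 SE) and Ube2c (4.79 ± 0.64 SE) were not called on 1 mean per line. Against mouse-1 (P35), none of the mitosis and replication genes was higher in the clone and 1 and 13 were lower. The summed mitosis genes reached 1290 to 1340 FPKM in the clone and 1850 to 1900 FPKM in mouse-1 (P35), so the P35 culture was above the clone in this sum.

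The promoters of the mitosis genes are shown because 17 of the 46 (of 56) with a RefSeq window (37.0%) held TTTGAA, the cell cycle homology region, and 32 (69.6%) held CCAAT within 250 bases before the start, on either strand. TTTGAA was in 16% of all windows and in 12.6% of the 8702 tested genes with a window, and CCAAT in 33.8% and 41.1%. The 130 bases before the start are given for the 4 genes with the largest rises among those that hold both elements there, with TTTGAA and CCAAT or their reverse complements TTCAAA and ATTGG in capitals.
Ube2c, chr2:164769799-164769928, plus strand: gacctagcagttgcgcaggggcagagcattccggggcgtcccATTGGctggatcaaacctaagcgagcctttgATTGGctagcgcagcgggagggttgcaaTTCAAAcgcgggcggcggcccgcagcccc
Kif22, chr7:127042421-127042550, minus strand: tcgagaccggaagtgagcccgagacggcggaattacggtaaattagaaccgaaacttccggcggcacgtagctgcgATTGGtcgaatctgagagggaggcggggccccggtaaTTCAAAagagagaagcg
Cdk1, chr10:69352913-69353042, minus strand: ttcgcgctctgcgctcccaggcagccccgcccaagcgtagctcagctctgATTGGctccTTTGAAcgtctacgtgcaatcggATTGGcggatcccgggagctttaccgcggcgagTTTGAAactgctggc
Cdc20, chr4:118437344-118437473, minus strand: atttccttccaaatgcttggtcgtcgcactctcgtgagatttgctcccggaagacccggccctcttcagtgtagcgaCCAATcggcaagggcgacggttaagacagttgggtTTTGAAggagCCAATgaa

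The element nearest the start begins 29 bases before it in Ube2c, 17 in Kif22, 15 in Cdk1 and 8 in Cdc20, and it is TTTGAA in the first 3 and CCAAT in Cdc20. In all 4 a CCAAT element lies upstream of the TTTGAA element. Of the replication genes, 6 of 40 with a window held TTTGAA and 26 of 40 (65.0%) CCAAT. The elements were chosen with the values known, and whether any factor binds there was not measured.

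Genes of the G1 phase rose in part. Of 25 tested, 13 rose and 1 fell, or 8 and 2 after median ratio scaling. Ccnd1, cyclin D1, was at 281, 273 and 227 FPKM in the clone, 73.7, 65.4 and 68.3 FPKM in mouse-1 (P10) and 90.7, 92.9 and 88.3 FPKM in mouse-2 (P10), a rise of 1.70 ± 0.13 (SE; adjusted p = 1.45e-06). Foxm1, a driver of mitotic genes that the study followed, averaged 20.7 FPKM in the clone, 0.858 FPKM in mouse-1 (P10), 3.78 FPKM in mouse-2 (P10) and 38.7 FPKM in mouse-1 (P35). All 4 factors that the study chose on samples of this series rose, Foxm1 by 2.87 (no call on 1 mean per line), the epithelial factor Elf3 by 2.03, Barx2 by 1.34 and Mxd3, a Myc network factor, by 1.34, and since they were chosen there this is not independent evidence. Of 36 cell cycle inhibitors and p53 targets tested, 14 rose and 1 fell, or 13 and 3 after median ratio scaling. The fall was in Cdkn2b, which blocks CDK4 and CDK6, at 0.59, 0.622 and 0.413 FPKM in the clone, 15.4, 13.8 and 13.5 FPKM in mouse-1 (P10) and 11.6, 10.5 and 10.6 FPKM in mouse-2 (P10). Cdkn2b averaged 17.7 FPKM in mouse-1 (P35), so the clone was low against all 3 cultures. Its neighbours on chromosome 4, looked up after this value was seen, were not called, with Cdkn2a at a mean of 2.34 FPKM in the clone and 5.40 and 3.23 FPKM in the bulk lines, and Mtap at 51 FPKM against 25.2 and 25.4 FPKM.

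**Figure D4:**
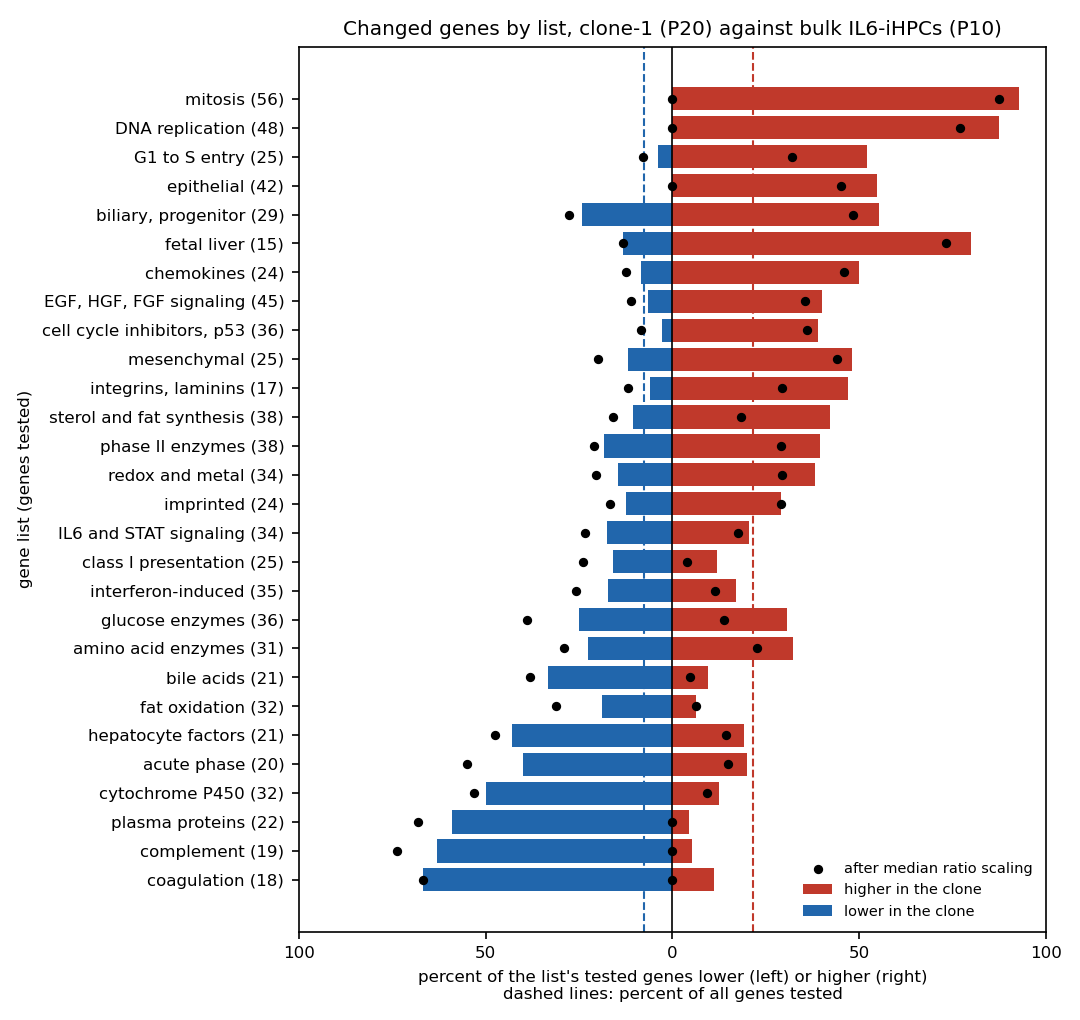
Bars give the percentage of the tested genes of each list shown that were called higher (right) or lower (left) in clone-1 (P20) than in the bulk lines at P10, dots give the same after median ratio scaling, and dashed lines mark the shares among all genes tested in FPKM (21.6% and 7.49%). The lines do not apply to the dots, for which 1438 of 11178 genes were called higher and 1433 lower. Mitosis and replication genes have the longest bars to the right, and complement, coagulation and plasma protein genes have the longest to the left.

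More genes of growth signaling rose than fell, and the EGF receptor was among the falls. Of 45 growth factor genes tested, 18 rose (40%) and 3 fell (6.67%), where 21.6% and 7.49% of all genes did, or 16 and 5 after median ratio scaling. Egfr, the receptor of the EGF in the medium, was at 16.2, 16.1 and 13.6 FPKM in the clone, 129, 132 and 141 FPKM in mouse-1 (P10) and 147, 150 and 150 FPKM in mouse-2 (P10), a fall by 3.12 ± 0.08 (SE; adjusted p = 7.26e-10). Areg, a ligand of that receptor, was at 74.1, 77.2 and 82.6 FPKM in the clone, at 12.7, 12 and 11.9 FPKM in mouse-1 (P10) and at 1.02, 1.39 and 1.11 FPKM in mouse-2 (P10), and its rise of 3.88 ± 0.73 (SE) was not called on 1 mean per line. Fgfr4, the FGF receptor of hepatocytes, fell by 1.63, and Met, the receptor of HGF (named after its values were seen), was at 16.8 FPKM against 15.2 and 16.6 FPKM in the bulk lines. Of 34 genes of the IL6 pathway tested, 7 rose (20.6%, near the 21.6% of all genes) and 6 fell (17.6%), or 6 and 8 after median ratio scaling, with a median of 0.03. Lif, an IL6 family cytokine, rose by 2.27 (no call on 1 mean per line) and Cebpd, a target of STAT3, by 2.12, while Osmr, the oncostatin M receptor, fell by 1.5 and Il1r1, the IL1 receptor, by 3.80.

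Other signaling lists held a few strong changes each. Ctgf, a target of YAP, was at 3.45 to 3.87 FPKM in the clone and 44.5 to 104 FPKM in the bulk samples, and Vgll3, a partner of the same TEAD factors, at 0.116 to 0.131 FPKM against 13.1 to 25.5 FPKM, and were the 2 falls of this list. Its 7 rises of 30 (23.3%) and 2 falls (6.67%) are near the shares of all genes, 21.6% and 7.49%, and became 5 and 4 after median ratio scaling. In the Notch list 7 of 17 rose and 1 fell, or 5 and 2 after median ratio scaling, with the ligand Jag2 at 22.7 to 25.2 FPKM against 0.104 to 0.752 FPKM and the ligand Jag1 at 2.42 to 3.16 FPKM against 6.89 to 12.1 FPKM, the latter without a call on 1 mean per line. In the Wnt list 9 of 21 rose and 2 fell, which became 3 and 5 after median ratio scaling. In the TGF-β and BMP list 10 of 33 rose and 3 fell, or 8 and 6 after median ratio scaling, with Id1 and Id3 among the rises and Inhbb, an activin subunit, among the falls. In the IGF list 4 of 17 rose and 6 fell, or 4 and 8 after median ratio scaling, with Igfbp1 at 40.2 to 44.7 FPKM against 110 to 302 FPKM, a call lost on 1 mean per line.

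Many chemokines rose and the antigen presentation genes held 2 strong falls. Of 24 chemokines and cytokines tested, 12 rose and 2 fell. The summed level of the list was nevertheless lower in the clone, at 4930 to 5730 FPKM. It reached 7950 to 9070 FPKM in mouse-1 (P10) and 10200 to 11300 FPKM in mouse-2 (P10). Cxcl5, which draws neutrophils, was at 70.8, 68.2 and 66.1 FPKM in the clone and 0.0653 to 0.453 FPKM in the bulk samples, with a mean of 187 FPKM in mouse-1 (P35). Ccl20, which draws dendritic cells and lymphocytes, was at 64.5, 60.8 and 70.4 FPKM against 0.682 to 1.66 FPKM, and averaged 6.46 FPKM in mouse-1 (P35). B2m, the light chain of MHC class I, was at 99 to 120 FPKM against 565 to 728 FPKM, and Nlrc5, which turns on class I genes, at 0.276 to 0.342 FPKM against 7.89 to 13.4 FPKM. Of 25 class I genes tested, 3 rose and 4 fell, with a median of 0.04, or 1 and 6 after median ratio scaling. Of 35 interferon genes tested, 6 rose and 6 fell, or 4 and 9 after median ratio scaling, with Iigp1, an interferon-induced GTPase, at 0.439 to 0.578 FPKM against 55.7 to 71.3 FPKM. In the redox and metal list 13 of 34 rose (38.2%) and 5 fell (14.7%), where 21.6% and 7.49% of all genes did, or 10 and 7 after median ratio scaling, with the zinc importer Slc39a4 up by 3.30, Mt3, a metallothionein, up by 3.36 and the zinc exporter Slc30a1 down, at 10.3 to 12.3 FPKM against 36.7 to 60.1 FPKM. In the endoplasmic reticulum stress list 7 of 41 rose (17.1%) and 1 fell (2.44%), beside 21.6% and 7.49% of all genes, or 3 and 4 after median ratio scaling, and of 29 ribosome biogenesis genes 3 rose, none of them after median ratio scaling.

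Imprinted genes, which are read from the maternal or the paternal copy only, included a few large differences. Of 49 listed, 39 were in the table and 24 passed the filter, of which 7 rose (29.2%) and 3 fell (12.5%), close to the 21.6% and 7.49% of all genes. Grb10, an adaptor that dampens insulin and IGF signaling, had 7235, 6199 and 4524 reads in the clone, 0 in all 3 samples of mouse-1 (P10) and 0, 2 and 0 in mouse-2 (P10). It averaged 17.9 FPKM in the clone, 0.0218 FPKM in mouse-1 (P35) and 1.25 FPKM in hepatocytes. Peg3, a zinc finger protein read from the paternal copy, was at 86.8, 78 and 63.5 FPKM in the clone, 8.94, 6.27 and 7.17 FPKM in mouse-1 (P10) and 1.66, 1.7 and 1.93 FPKM in mouse-2 (P10), and averaged 1.54 FPKM in mouse-1 (P35). Sgce, a sarcoglycan on chromosome 6, was the opposite, at 0.0774, 0.0734 and 0.0767 FPKM in the clone, 10.4 to 13.2 FPKM in mouse-1 (P10) and 19.9 to 22.2 FPKM in mouse-2 (P10). Its neighbour Peg10, which did not pass the filter and was named after its values were seen, had 0, 1 and 0 reads in the clone and 58 to 200 reads in each bulk sample.

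The Y-linked genes set the clone apart from every bulk library. Eif2s3y had 2719, 1917 and 2254 reads in the clone and 0 in all 6 bulk samples, and Ddx3y 2658, 2147 and 1915 reads against 0. Kdm5d and Uty likewise had 910 to 2248 reads in each clone sample and 0 in each bulk sample. They passed the filter through the clone alone and are given as a description. In mouse-1 (P35), Eif2s3y had 2, 0 and 0 reads, and Ddx3y, Kdm5d and Uty had 0 in each sample. The hepatocyte samples held Eif2s3y at a mean of 4.08 FPKM. Whether the donors differed in sex is not stated in the labels. Any effect of a difference in sex on other genes cannot be told apart from those of clone and passage. Xist was not analysed here.

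The differences were uneven over the chromosomes, a pattern looked for after the data were seen and given without a test. RefSeq placed 11117 of the genes tested, on 20 chromosomes. The median difference of the clone from the bulk lines was -0.40 on chromosome 4 (703 genes), -0.21 on chromosome 6 (537 genes) and 0.71 on chromosome 16 (360 genes), and 0.25 to 0.47 on each of the other 17. On chromosome 4, 6.26% of the genes were called higher and 20.8% lower, and on chromosome 16 35.6% higher and 3.33% lower, where the 17 others had 18.6 to 27.3% higher and 4.14 to 9.24% lower. The pattern was the same in each clone sample, at -0.39, -0.40 and -0.40 for chromosome 4, -0.21, -0.19 and -0.21 for chromosome 6 and 0.71, 0.73 and 0.65 for chromosome 16. The bulk samples lay between -0.07 and 0.05 on these 3 chromosomes. Against mouse-1 (P10), mouse-1 (P35) was at -0.19 on chromosome 4, 0.12 on chromosome 6 and 0.37 on chromosome 16, and at 0.33 to 0.59 on the 17 others.

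**Figure D5:**
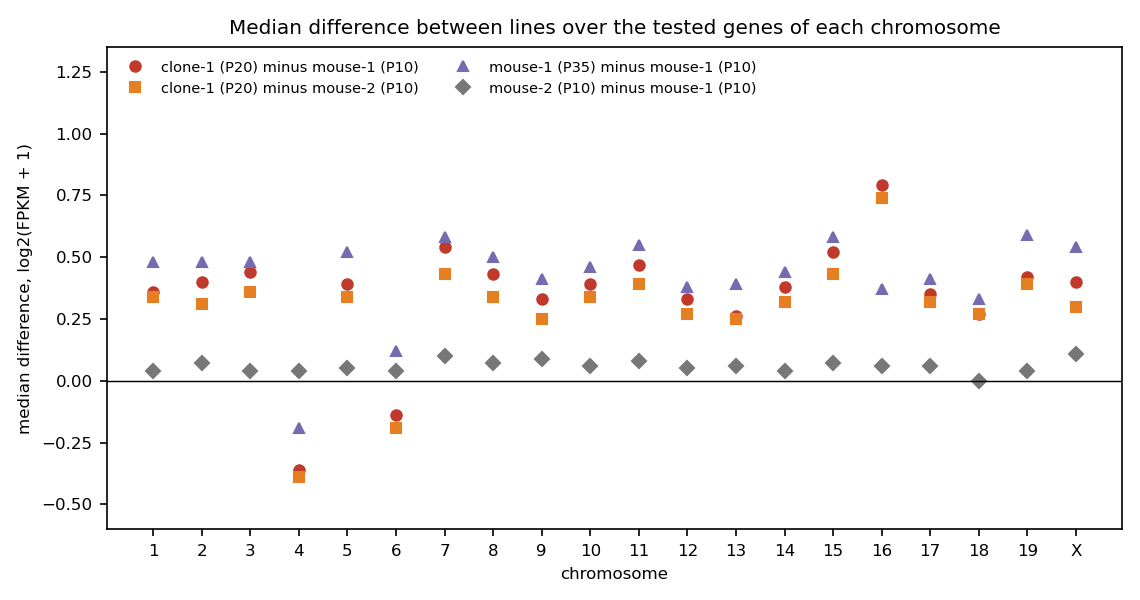
Median log2 difference of the genes on each of 20 chromosomes, for clone-1 (P20) against mouse-1 (P10), clone-1 (P20) against mouse-2 (P10), mouse-1 (P35) against mouse-1 (P10) and mouse-2 (P10) against mouse-1 (P10). In both clone comparisons chromosomes 4 and 6 lie below 0 and chromosome 16 lies highest, while mouse-2 against mouse-1 stays between 0.00 and 0.11.

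The shift ran along the whole of each chromosome. With the genes of a chromosome cut into 4 equal parts by position, the medians were -0.52 to -0.35 on chromosome 4, -0.33 to -0.10 on chromosome 6 and 0.63 to 0.78 on chromosome 16. Of the genes placed and called, 230 higher and 240 lower lay on these 3 chromosomes, and 2174 higher and 589 lower on the others. Changes of single genes there, such as Cyp4a12a, Cyp2j5 and Cdkn2b on chromosome 4 and Pzp and Sgce on chromosome 6, are many times larger than the shift of their chromosome. DNA was not measured in these samples, and the part of gene dosage in the pattern was not tested. The study reports a normal diploid karyotype for late-passage cells, among them a reporter clone named IL6-td-iHPCs-clone-1 (P20). The labels do not say whether that is the clone sequenced here.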

How the data were processed

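The paper names neither the unit nor the software of the expression table. The submitters' processing notes list TopHat 1.4.1, Cufflinks 1.3.0 and mm10. The deposited values were taken as FPKM made by the authors from mapped reads, 1 per gene and sample. Counting was not stated to use strand, and it is the authors' own. Values were analysed as log2(FPKM + 1), and 2 symbols listed again were averaged. Reads per gene were recovered from the FPKM steps, with whole reads (within 0.05) in 18028 of 18029 rows above 0. The tables of day 7 cultures and of livers after partial hepatectomy were not used. All pairs of repeats differed by more than the sampling noise of their reads.

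Clone and bulk groups were compared with limma 3.58.1 in R 4.3.3 (trend in the prior variance, p-values two-sided, Benjamini-Hochberg over 11178 genes), the clone also with each P10 line and with mouse-1 (P35). Alternatives were a pseudocount of 0.1, other filters, scalings, fold limits, a replicate block, voom on recovered reads, 1 mean per line and leaving out each sample. The steps were tested on simulated data. Genes named are the 15 largest rises and falls called against both lines, the 2 largest of each direction in each of 50 lists, the genes the study follows and the Y-linked genes. Others are marked, and some genes that the rule names are not reported here. The comparison, lists and elements were chosen with earlier results of these data known. Python 3.11.15, numpy 2.4.6, pandas 2.3.3 and matplotlib 3.10.9 were used. Sequences and positions come from RefSeq, GRCm38.p6.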

Additional observations from a re-analysis of the deposited data

Results flagged for a closer look

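In 12 of 169 genes examined, the highest bulk sample stood apart from the other 5 by more than Dixon's 95% limit for a group of 6. That limit is set for independent values of 1 distribution. The 6 samples are technical repeats of 2 lines, so no rate expected by chance is given. Wfdc2 was at 3.74 FPKM in mouse-1 (P10) replicate 1 (others at most 1.45), and in that same sample Emp1 was at 0.622 FPKM (others at most 0.354), Gsta4 at 2.6 (1.12), Aldh1a1 at 758 (580), Reg3b at 3.1 (1.52), Bst2 at 14.8 (10.3), Slc39a4 at 6.95 (5.88) and Sdf2l1 at 14.4 (8.99). Hamp was at 0.445 FPKM in mouse-1 (P10) replicate 2 (others at most 0.177). In mouse-2 (P10), Grb10 was at 0.00557 FPKM in replicate 2, where the others were at 0, Vcan at 2.95 in the same replicate (others at most 2.5) and Mt3 at 1.61 in replicate 3 (others at most 0.905). Of the 12, 8 were in mouse-1 (P10) replicate 1. Except for Aldh1a1 and Reg3b, which fell in the clone, these genes were higher in every clone sample than in that highest bulk sample.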

How the results depend on the processing

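The count of 3250 changed genes was 3150 to 3309 when any 1 sample was left out, 3248 without the filter, 2729 with a filter at 5 FPKM, 2765 with quantile normalization, 2871 with median ratio scaling, 3966 with a pseudocount of 0.1, 4013 with voom on recovered reads and 2192 with 1 mean per line. With no fold limit it was 8459, and at 4-fold 814. Leaving out a sample gave 3436 to 3695 against mouse-1 (P10), 3167 to 3292 against mouse-2 (P10), 2571 to 2700 against both, 489 to 533 between the bulk lines and 1035 to 1087 against mouse-1 (P35). With no fold limit these 5 counts were 9383, 9198, 8018, 5596 and 7614, and at 4-fold 942, 791, 648, 56 and 246. Between the bulk lines, a pseudocount of 0.1 gave 930 and voom 1043, and voom gave 1606 against mouse-1 (P35). Higher and lower calls were 1535 and 1493 with quantile normalization and 1585 and 1525 with median ratio scaling against mouse-1 (P10), 1431 and 1364 or 1387 and 1531 against mouse-2 (P10), and 1164 and 1032 or 1169 and 1108 against both.

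The labels number the replicates 1 to 3 in each group. Deviations of same-numbered samples correlated at -0.30 to 0.17, over 0.1 in 3 of 9 pairs. Pairs with different numbers were not set beside them, so whether the number marks a pairing was not decided. The replicate block gave 3238 changed genes. Of the genes named, Hnf4a alone reversed (-0.12 with quantile normalization), and single calls were lost most often on 1 mean per line (41 genes) and at 4-fold (37 genes). Against the median of the other chromosomes, over the settings run, chromosome 4 was at -0.87 to -0.73, chromosome 6 at -0.66 to -0.53 and chromosome 16 at 0.32 to 0.40. The chromosome medians were chosen after seeing the data. With 1 clone and technical repeats, no spread between clones or cultures was measured.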
